A study of Mus musculus with 16 samples.

Results

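The 10 reactive astrocyte genes *Lcn2*, *Serpina3n*, *Steap4*, *Timp1*, *Cd44*, *Osmr*, *Cp*, *Hspb1*, *C3* and *Aspg* were followed in differentiating mouse neural stem cells (NSCs) that carried an shRNA against the long noncoding RNA *RUS*, or a control shRNA. They were taken by symbol from the expression tables of day 5 and day 7, which hold 55471 lines each. *Aspg* was added to the other members because of its large rise on day 5. Its values that involve day 5 are therefore given as a description, with no test, and its only tested comparison is that of the shRNAs on day 7. The NSCs came from cortices of C57BL/6 embryos of stage E15-16, pooled from animals of mixed sex, and all cultures were transduced with a lentivirus. It carried either a scrambled shRNA (shRNA CON) or a *RUS* targeting shRNA (shRNA RUS), each driven by a U6 promoter, and 4 libraries were made for each shRNA and day. Nothing states that the 4 came from separate animals, so that p-values measure the spread between these libraries only. Cells of day 5 had grown in DMEM F12 with B27, FCS and FGF2. Differentiation began 5 days after seeding with a change to Neurobasal medium with B27 and GlutaMAX, so that between day 5 and day 7 time, the loss of serum and FGF2 and any batch of library making cannot be told apart.

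Reactive astrocytes are the state that astrocytes enter after injury, inflammation or seizures. They make intermediate filaments and secreted acute phase and protease inhibitor proteins, and several of these genes are switched on through the gp130 receptors and the transcription factor Stat3 or through NF-kB. All members except *C3* are commonly listed as pan-reactive, that is, induced after both inflammatory and ischemic injury, whereas *C3* is used as a marker of the astrocytes induced by factors from microglia. None of these genes is particular to astrocytes: *C3* and *Cd44* are also made by microglia, *Timp1* and *Serpina3n* by fibroblasts or other glia.

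The values are TPM (a level per length of transcript, as a share of all transcripts), divided by a factor for each library that sets the typical gene to the same level, and are called scaled TPM below. Unless stated otherwise the factors were set within a day. Changes are given as log2 fold changes of scaled TPM + 0.1. TPM keeps no read number, so that depth is unknown. The targeted gene, *Gm20754* in the tables, was at 0.11 to 0.24 TPM with shRNA CON and 0 to 0.32 TPM with shRNA RUS on day 5, and at 0.26 to 0.72 TPM and 0 to 0.54 TPM on day 7. Its means were 0.172 ± 0.0538 and 0.122 ± 0.141 TPM on day 5 and 0.555 ± 0.213 and 0.24 ± 0.263 TPM on day 7 (SD, n = 4), lower with shRNA RUS each time. The ranges overlapped on both days, and the highest value of day 5 was in the library labelled replicate 4 of shRNA RUS. Values without that library are given below for *Timp1*, *Hspb1* and *Lcn2*. Leaving it out moved the genes called on day 5 from 7383 to 8522. The culture held astrocyte markers throughout, with a summed level of the 14 markers of 6262 to 7043 TPM (as deposited) in shRNA CON on day 5 and of 5494 to 5692 in shRNA RUS on day 7. *Slc1a3* and *Glul* among them are used as markers of radial glia as well, so that the list does not tell astrocytes from the cultured NSCs. The culture also held the 16 microglia and macrophage markers, and of the 10 endothelial and pericyte markers *Cldn5* and *Tie1* stayed under 0.1 TPM in every library. In such mixed cultures, fewer cells of a type and less RNA per cell cannot be told apart.

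With knockdown, 9 of the 10 members were called higher on day 7 and 5 of the 9 tested on day 5, while *Lcn2* was lower on both days. On day 5, 5 members were called higher with shRNA RUS (limma adjusted p under 0.05) and 1 lower, beside 14.8% of all 22581 genes tested called higher and 17.9% called lower. *Serpina3n*, *Steap4*, *Timp1*, *Osmr* and *Hspb1* made up the 5, *Lcn2* was the 1, and *Cd44*, *Cp* and *C3* were not called. On day 7 the 9 called higher and *Lcn2* stood beside 23.4% of 24606 genes called higher and 25.8% called lower. The median log2 fold change was 0.41 over the 9 members without *Aspg* on day 5 and 1.02 over all 10 on day 7, and that of all genes tested was −0.061 and −0.029. The effect itself was tested for a difference between the days in a fit over all 16 libraries. It was higher on day 7 for 6 members (*Steap4*, *Cp*, *C3*, *Osmr*, *Cd44* and *Serpina3n*) beside 15.2% of 23789 genes called higher and 14.6% called lower. For *Lcn2*, *Timp1* and *Hspb1* the difference between the days did not pass the test. These counts depend in part on the scaling of day 5: of all calls on that day 45.4% were higher as scaled, 22.7% with TPM as deposited, 33.2% with scaling to the 75th percentile and 50.1% with quantile normalization.

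**Figure D1:**
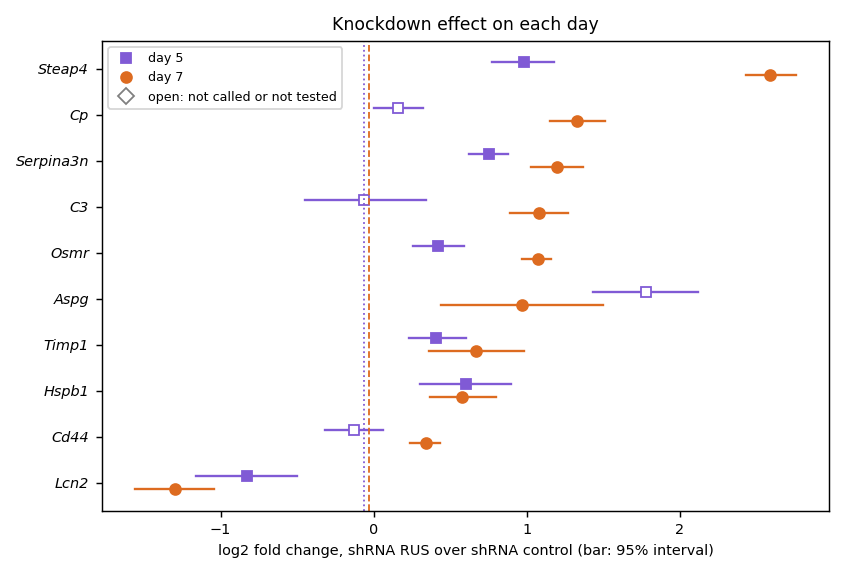
Log2 fold change of each member, shRNA RUS over shRNA CON, on day 5 (squares) and day 7 (circles), with bars for the 95% interval of the limma fit. Filled symbols passed the test, open ones did not or, for *Aspg* on day 5, were not tested, and the dotted and dashed lines mark the median of all genes on day 5 and day 7. The bar of *Aspg* on day 5 comes from the values it was chosen for and cannot be read as a test. *Steap4* lies farthest to the right on day 7 (2.59), and *Lcn2* is the member left of the medians on both days (−0.83 and −1.30).

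**Figure D2:**
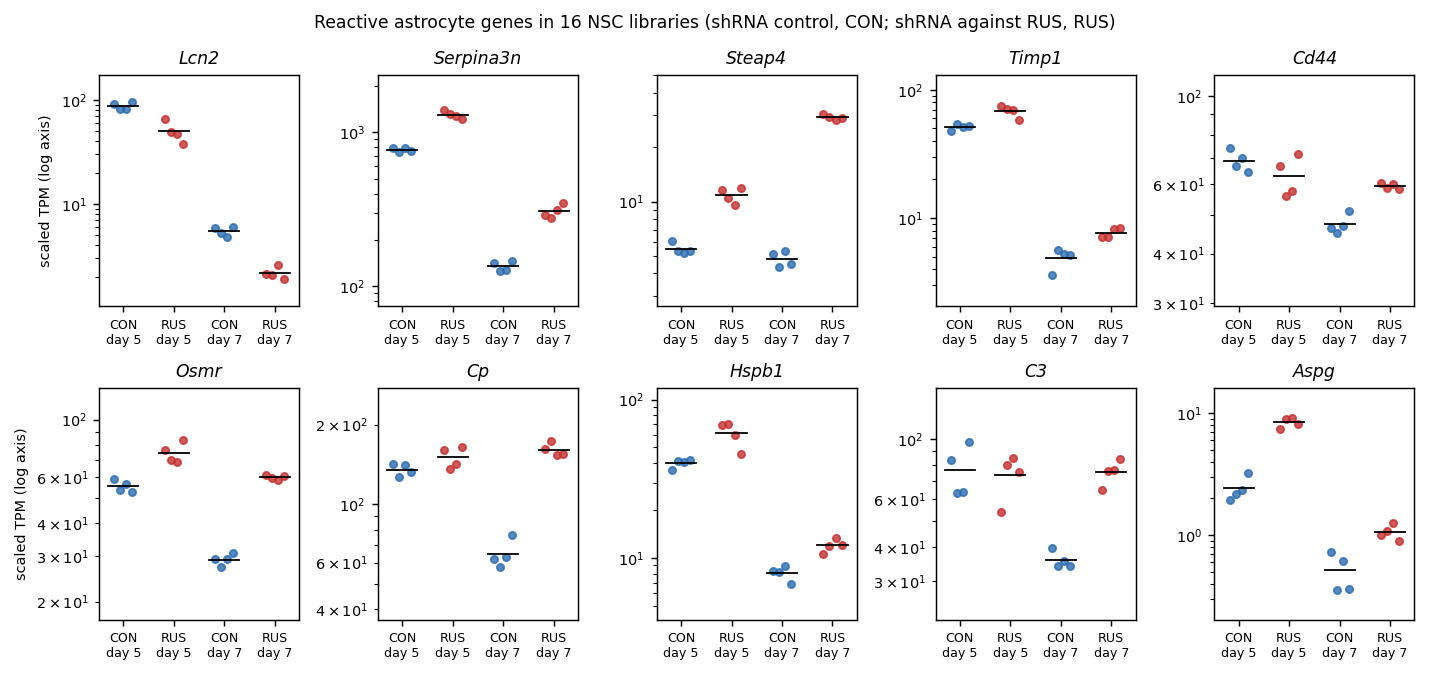
Scaled TPM of each member in the 16 libraries on a log axis, here with factors set over both days, for shRNA CON (blue) and shRNA RUS (red). Each point is a library and each line the mean of 4. The 4 day 7 libraries of *Steap4* with shRNA RUS stand above all others of that gene, and the day 7 libraries of *Lcn2* and *Timp1* lie far below those of day 5.

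*Steap4* had the largest knockdown effect of the members on day 7. It encodes a membrane reductase of iron and copper, and its gene lies on chromosome 5 (plus strand, 7960457 to 7982213) (GENCODE on GRCm38). Its levels on day 5 were 5.53, 4.91, 4.79 and 4.92 scaled TPM with shRNA CON and 10.6, 9.66, 8.84 and 10.9 with shRNA RUS. Every shRNA RUS library lay above every control, with a change of 0.98 ± 0.0892 (SE, adjusted p = 7.71e-05 by limma). The day 7 libraries had 5.55, 4.71, 5.75 and 4.87 with shRNA CON and 33.1, 32.1, 31.0 and 31.6 with shRNA RUS. The lowest knockdown library lay far above the highest control. The mean went from 5.22 ± 0.509 to 31.9 ± 0.905 (SD, n = 4). This is a change of 2.59 ± 0.0713 (SE, adjusted p = 4.6e-08 by limma) or 6.04-fold on this scale, rank 59 of 24606 genes from the highest. The effect was larger on day 7 by 1.60 ± 0.113 (SE, adjusted p = 5.1e-07 by limma) on the log2 scale.

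The start of *Steap4* is shown since this gene had the largest knockdown effect of the members on day 7, and since a promoter can be read for the motifs of the 2 pathways named above. The sequence is the RefSeq promoter window of 300 bases (250 before the start site and 50 after it, GRCm38.p6, chr5:7960222-7960521, plus strand). Capitals mark the matches to the motifs searched, which were a STAT motif (TTCNNNGAA, alike on both strands) and the NF-kB motif on either strand.
Steap4: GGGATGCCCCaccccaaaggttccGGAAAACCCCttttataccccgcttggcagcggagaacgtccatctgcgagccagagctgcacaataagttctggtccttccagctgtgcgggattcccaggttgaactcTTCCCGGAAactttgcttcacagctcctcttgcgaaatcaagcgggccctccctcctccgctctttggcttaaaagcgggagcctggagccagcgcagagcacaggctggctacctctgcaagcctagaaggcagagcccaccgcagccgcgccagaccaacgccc
The window holds 1 STAT match at −116 from the start site and NF-kB matches at −250 and −226, none of which overlaps another. Of all 32851 promoter windows, 8.30% hold the STAT motif and 8.46% the NF-kB motif. Windows were found for all 10 members, and *Steap4* alone held either motif. This 1 of 10 is near the share of all 27025 genes, 9.55% for each motif. A match is a run of letters and does not show that a factor binds there.

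*Cp* encodes ceruloplasmin, the copper-carrying oxidase that turns ferrous into ferric iron. The gene is on chromosome 3 (plus strand, 19957054 to 20009145), and 108 of its 9566 exonic bases overlap *Hps3* on the other strand. On day 5 it had 129, 117, 129 and 121 scaled TPM with shRNA CON and 148, 126, 131 and 151 with shRNA RUS, and the groups overlapped. The change of 0.16 ± 0.0708 (SE, adjusted p = 0.116 by limma) was not called. By day 7 the controls were at 67.0, 62.6, 68.1 and 81.6 and the knockdown libraries at 175, 189.8, 168 and 168. All 4 knockdown values lay above 81.6, the highest control. Knockdown raised *Cp* by 1.33 ± 0.0783 (SE, adjusted p = 1.16e-06 by limma), and the difference from day 5 was 1.16 ± 0.113 (SE, adjusted p = 6.17e-06 by limma). Other genes of iron handling went both ways. Of 13 genes for the paralogs of *Steap4* and for iron carriers, pumps and stores, 3 were called higher and 5 lower on day 7 (median −0.02). Of all genes tested, 23.4% were called higher and 25.8% lower on that day. *Hmox1*, which frees iron from heme, rose by 1.16 (limma adjusted p = 9.68e-08), and *Fth1*, the heavy chain of the iron store ferritin, by 0.63 (limma adjusted p = 2.33e-05). The ferritin light chain *Ftl1* went the other way (−0.97 (limma adjusted p = 6.56e-07)). So did *Heph*, an oxidase related to ceruloplasmin (−1.47 (limma adjusted p = 3.22e-06)), and *Steap1*, a paralog of *Steap4* (−1.26 (limma adjusted p = 0.000131)), which had been higher on day 5 (0.46 (limma adjusted p = 0.00182)). On day 5, 5 genes of this list were higher and 5 lower, beside 14.8% and 17.9% of all genes.

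The secreted inhibitors *Serpina3n* and *Timp1* were higher with shRNA RUS on both days. *Serpina3n*, an inhibitor of serine proteases on chromosome 12 (plus strand, 104406729 to 104414329), was the most abundant member in each of the 4 groups. On day 5 the controls held 727, 685, 732 and 697 scaled TPM and the shRNA RUS libraries 1286, 1210.1, 1171 and 1123. The lowest knockdown library thus exceeded the highest control by far. *Serpina3n* rose by 0.75 ± 0.0581 (SE, adjusted p = 3.74e-05 by limma), and by 0.47 with quantile normalization (limma adjusted p = 0.00105). On day 7 the controls had 154, 136, 138 and 157, against 317, 306, 344 and 381 in knockdown. Again the groups did not overlap, and the rise was 1.20 ± 0.0756 (SE, adjusted p = 1.75e-06 by limma). The effect was larger on day 7 by 0.43 ± 0.0972 (SE, adjusted p = 0.00348 by limma), and by 0.84 with quantile normalization (limma adjusted p = 8.75e-05). In the Serpina3 cluster, which holds near-identical copies whose reads may be split between them, 2 of 10 other genes were expressed highly enough to be tested. *Serpina3i* was called higher on both days at levels of at most 2.67 scaled TPM on average (factors over both days), and *Serpina3h* was not called.

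*Timp1*, which inhibits matrix metalloproteinases, lies on chromosome X (plus strand, 20870166 to 20874735) inside the span of *Syn1*, which runs on the other strand and shares no exonic base with it. Its values on day 5 were 43.9, 49.6, 47.4 and 47.9 with shRNA CON and 69.0, 65.3, 64.5 and 53.6 with shRNA RUS. Replicate 4 of shRNA RUS was nearest to the controls but still above them. *Timp1* rose by 0.41 ± 0.0814 (SE, adjusted p = 0.00422 by limma), by 0.49 without that library (limma adjusted p = 0.000285) and by 0.26 with TPM as deposited (0.00958). For day 7 the values were 3.89, 6.08, 5.67 and 5.54 and 7.70, 7.79, 9.02 and 9.09. No control reached the lowest knockdown library. The change was 0.67 ± 0.137 (SE, adjusted p = 0.0026 by limma), and its difference from that of day 5 did not pass the test (0.24, 95% interval from −0.11 to 0.60, limma adjusted p = 0.292). It was 0.10 without replicate 1 of shRNA CON of day 7 (limma adjusted p = 0.56) and 0.43 with quantile normalization (0.0509). Of the 15 genes listed for the other Timps and for matrix proteases, 8 of 14 tested were higher and 2 lower on day 7, and 4 and 2 of 15 on day 5. *Mmp14*, a membrane-bound collagenase, rose by 0.72 (limma adjusted p = 0.000128) on day 5 and 1.37 (limma adjusted p = 1.66e-07) on day 7. *Timp2* rose by 0.51 (limma adjusted p = 3.67e-05) on day 7. *Timp3*, which binds to the matrix, was lower on both days (−1.06 (limma adjusted p = 1.9e-05) and −0.56 (limma adjusted p = 8.48e-06)).

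Of the receptor genes, *Osmr* was higher on both days, and *Cd44* was called on day 7 alone. *Osmr*, the subunit that joins gp130 to form the oncostatin M receptor, is on chromosome 15 (minus strand, 6813577 to 6874969). With shRNA CON it had 54.3, 49.2, 52.4 and 48.7 scaled TPM on day 5 and with shRNA RUS 70.2, 64.9, 63.3 and 76.8, without overlap. The change of 0.42 ± 0.0714 (SE, adjusted p = 0.00186 by limma) lost its call with TPM as deposited (0.27, limma adjusted p = 0.058). On day 7 the control libraries had 31.5, 29.3, 31.5 and 33.0. The shRNA RUS libraries had 66.2, 65.0, 64.5 and 66.4, a spread of under 2 scaled TPM. *Osmr* rose by 1.07 ± 0.0417 (SE, adjusted p = 1.66e-07 by limma), more than on day 5 by 0.63 ± 0.085 (SE, adjusted p = 8.34e-05 by limma). *Cd44*, a receptor of hyaluronan on chromosome 2 (minus strand, 102811141 to 102901665), had 67.6, 61.3, 64.5 and 59.3 with shRNA CON on day 5. With shRNA RUS it had 61.3, 51.7, 53.0 and 65.8, so that replicates 1 and 4 fell among the controls. The difference did not pass the test (−0.13, 95% interval from −0.32 to 0.06, limma adjusted p = 0.279). On day 7 its levels were 50.3, 48.9, 50.9 and 54.9 and 65.6, 64.1, 65.9 and 63.3. The groups were apart, by the smallest change of the members, 0.34 ± 0.0415 (SE, adjusted p = 0.000115 by limma). The effect on *Cd44* differed between the days by 0.45 ± 0.0996 (SE, adjusted p = 0.00306 by limma). Of 11 genes for ligands, hyaluronan enzymes and intracellular linkers of *Cd44*, 5 were called lower on each day and the other 6 were not called. *Spp1*, which encodes the Cd44 ligand osteopontin and is also made by microglia, fell by 0.51 (limma adjusted p = 0.000929) on day 5 and by 0.92 (limma adjusted p = 2.86e-05) on day 7.

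*C3*, the central component of complement, on chromosome 17 (minus strand, 57203970 to 57228136), had the largest SE of the fit among the members on day 5 (0.176). The control libraries had 76.4, 58.2, 59.0 and 89.7 scaled TPM and those with shRNA RUS 49.4, 74.1, 78.4 and 69.6. The ranges overlapped widely. The log2 fold change of −0.06 (95% interval from −0.45 to 0.34, limma adjusted p = 0.831) was not called, and its sign turned without replicate 4 of shRNA CON (0.06) or replicate 1 of shRNA RUS (0.09). By day 7 the controls had 42.8, 37.0, 38.6 and 36.7 and the knockdown libraries 70.1, 83.0, 84.2 and 91.8. All knockdown values lay above all controls, with a rise of 1.08 ± 0.0828 (SE, adjusted p = 5.57e-06 by limma) and a difference from day 5 of 1.13 ± 0.209 (SE, adjusted p = 0.000977 by limma). Microglia are another source of *C3*. On day 7 all 16 microglia and macrophage markers were called lower with shRNA RUS, against the direction of *C3*, and their summed level was 829.9 to 892.5 TPM in shRNA CON and 389 to 472 TPM in shRNA RUS (as deposited). The part of these cells in the level of *C3* was not tested. On day 7, 5 of the 18 other complement genes tested were higher and 10 lower. *Serping1*, the inhibitor of the first complement enzymes, was among the former with 1.99 (limma adjusted p = 6.53e-08), as was *C4b* with 0.78 (limma adjusted p = 4.17e-05). *C1qa* and *C1qc*, parts of C1q that also stand in the microglia list, were lower (−1.04 (limma adjusted p = 4.93e-06) and −0.93 (limma adjusted p = 3.72e-06)), and the anaphylatoxin receptor gene *C5ar1* was too (−1.56 (limma adjusted p = 1.17e-05)). On day 5, 4 of these genes were higher and 4 lower.

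*Hspb1*, a small heat shock protein that shields other proteins and actin, is on chromosome 5 (plus strand, 135887919 to 135889563). It had 32.9, 38.0, 37.3 and 38.1 scaled TPM with shRNA CON on day 5. The shRNA RUS libraries had 63.9, 65.2, 54.7 and 41.5. All lay above the controls, replicate 4 by the least. *Hspb1* rose by 0.60 ± 0.134 (SE, adjusted p = 0.00788 by limma), and by 0.74 without that replicate (limma adjusted p = 0.000215). Its day 7 values were 9.05, 8.90, 9.63 and 7.41 and 11.6, 13.1, 14.7 and 13.2. The groups did not overlap and the change was 0.58 ± 0.0962 (SE, adjusted p = 0.000736 by limma). Its difference from that of day 5 did not pass the test (−0.03, 95% interval from −0.40 to 0.33, limma adjusted p = 0.918). Of the other small heat shock proteins and targets of the heat shock factor Hsf1, 4 of 13 tested were higher and 3 lower on day 5, and 5 and 5 of 14 on day 7. *Cryab*, a small heat shock protein of astrocytes, rose by 0.74 (limma adjusted p = 0.00038) on day 5. The cochaperone gene *Bag3* rose by 0.71 (limma adjusted p = 0.000129) and 1.49 (limma adjusted p = 2.83e-06), and *Hsp90aa1*, the inducible Hsp90, was lower on both days (−0.59 (limma adjusted p = 0.000852) and −0.93 (limma adjusted p = 1.21e-05)). The promoter of *Hspb1* is shown because it was the only member's window with the heat shock motif (GAANNTTC, alike on both strands, in capitals), from RefSeq on GRCm38.p6, chr5:135887669-135887968, plus strand.
Hspb1: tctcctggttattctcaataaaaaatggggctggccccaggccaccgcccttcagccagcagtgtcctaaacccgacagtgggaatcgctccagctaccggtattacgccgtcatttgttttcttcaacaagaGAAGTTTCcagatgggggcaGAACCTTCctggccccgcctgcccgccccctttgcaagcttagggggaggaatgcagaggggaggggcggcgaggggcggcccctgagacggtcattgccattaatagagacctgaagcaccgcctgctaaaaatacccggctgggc
The matches lie at −117 and −97 from the start site and do not overlap. This motif is in 7.86% of all promoter windows and in a window of 9.04% of genes.

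*Lcn2* went against the other members. It encodes lipocalin 2, a secreted protein that binds iron-carrying siderophores and rises strongly in reactive astrocytes, and lies on chromosome 2 (minus strand, 32384633 to 32388252). On day 5 the controls had 84.7, 75.01, 75.6 and 88.8 scaled TPM and the shRNA RUS libraries 61.0, 45.6, 43.8 and 35.1. The lowest value was again in replicate 4, and the highest knockdown value stayed below the lowest control. The change was −0.83 ± 0.146 (SE, adjusted p = 0.00238 by limma), and −0.70 without that library (limma adjusted p = 0.00211). On day 7 the levels were 6.42, 5.70, 5.27 and 6.46 with shRNA CON and 2.28, 2.29, 2.85 and 2.06 with shRNA RUS. The groups stayed apart at this low level, with a change of −1.30 ± 0.117 (SE, adjusted p = 1.46e-05 by limma). Its effect on day 7 differed from that on day 5 by −0.48 (95% interval from −0.89 to −0.07), which did not pass the test (limma adjusted p = 0.0747) and did without replicate 4 of shRNA RUS of day 5 (−0.60, 0.0129) or replicate 3 of shRNA RUS of day 7 (−0.57, 0.0394). It was −0.34 without replicate 1 of shRNA RUS of day 5 and −0.22 with a pseudocount of 1 (limma adjusted p = 0.384). Of the genes for lipocalin 2 receptors, *Slc22a17* rose on both days (0.39 (limma adjusted p = 0.00183) and 0.37 (limma adjusted p = 2.75e-05)) and *Lrp2* was lower on both (−0.63 (limma adjusted p = 0.0113) and −0.35 (limma adjusted p = 0.00232)). Neutrophils and macrophages make lipocalin 2 as well. The microglia and macrophage markers summed to 341 to 356 TPM as deposited with shRNA CON and 290 to 349 with shRNA RUS on day 5, with 2 of 16 called higher and 4 lower. On day 7, where all 16 were called lower, they summed to 829.9 to 892.5 TPM and 389 to 472 TPM, in the same direction as *Lcn2*. Their part in *Lcn2* was not tested.

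*Aspg*, an enzyme of the asparaginase family, on chromosome 12 (plus strand, 112106679 to 112127559), was the member with the lowest level. It was chosen for its values on day 5, 1.77, 1.99, 2.18 and 2.97 scaled TPM with shRNA CON and 6.84, 8.29, 8.42 and 7.50 with shRNA RUS. They differ by 1.78 on the log2 scale and lie apart, as the choice implies. The values of day 7 were not used for the choice. They were 0.787, 0.387, 0.665 and 0.392 with shRNA CON and 1.09, 1.17, 1.38 and 0.980 with shRNA RUS, again without overlap. *Aspg* rose by 0.97 ± 0.235 (SE, adjusted p = 0.00683 by limma) on day 7. It was 0.47 with a pseudocount of 1 in place of 0.1 (limma adjusted p = 0.00483), since the levels are near that number.

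In the controls, most members declined from day 5 to day 7, and with shRNA RUS fewer were called lower. With factors set over all 16 libraries, 8 of the 9 tested members were called lower on day 7 than on day 5 with shRNA CON, beside 21.6% of all genes called lower and 26.9% called higher. With shRNA RUS, 5 were called lower and 1 higher, beside 25.8% and 35.0%. No test compared these counts. Over the alternatives, the members called in either direction were 7 to 9 with shRNA CON and 5 to 8 with shRNA RUS. The median over the 9 members without *Aspg* was −1.08 with shRNA CON and −0.31 with shRNA RUS, and over all genes 0.067 and 0.131. *Lcn2* fell most. It went from 81.5 to 96.4 scaled TPM to 4.87 to 6.02 with shRNA CON and from 38.2 to 66.5 to 1.89 to 2.60 with shRNA RUS. The day 7 libraries lay below all day 5 libraries in both cases, with changes of −3.97 ± 0.137 (SE, adjusted p = 4.49e-12 by limma) and −4.45 ± 0.137 (SE, adjusted p = 1.22e-12 by limma). The former is rank 15 of 23789 from the lowest.

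*Timp1*, *Hspb1* and *Serpina3n* also fell with either shRNA. *Timp1* changed by −3.38 ± 0.117 (SE, adjusted p = 4.5e-12 by limma) and −3.13 ± 0.117 (SE, adjusted p = 9.36e-12 by limma). *Hspb1* changed by −2.29 and −2.32, and *Serpina3n* by −2.51 and −2.08 (limma adjusted p = 5.2e-10, 3.19e-10, 5.8e-13 and 2.62e-12 in this order). *Serpina3n* moved from rank 143 of 55365 genes by mean level to rank 1040 with shRNA CON, and from rank 84 to rank 359 with shRNA RUS. *Aspg*, not tested here, differed by −2.06 and −2.88, and by −1.17 and −2.19 with a pseudocount of 1.

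*Osmr*, *Cp*, *C3* and *Cd44* kept more of their level with shRNA RUS. *Cp* fell from 127 to 141 to 57.9 to 76.0 scaled TPM with shRNA CON, a change of −1.07 ± 0.08 (SE, adjusted p = 2.63e-08 by limma). With shRNA RUS it went from 136 to 164 to 153 to 174, ranges that overlap, and the change was not called (0.09, 95% interval from −0.08 to 0.26, limma adjusted p = 0.337). For *C3* the values were −1.08 ± 0.148 (SE, adjusted p = 1.85e-05 by limma) with shRNA CON and 0.05 with shRNA RUS (95% interval from −0.27 to 0.36, limma adjusted p = 0.802). *Cd44* changed by −0.53 ± 0.0704 (SE, adjusted p = 1.3e-05 by limma) in the controls and by −0.08 in knockdown (95% interval from −0.23 to 0.07, limma adjusted p = 0.364). *Osmr* was lower on day 7 with both, by −0.94 ± 0.0601 (SE, adjusted p = 4.26e-09 by limma) and −0.31 ± 0.0601 (SE, adjusted p = 0.000326 by limma). With shRNA RUS these 4 changes depended on the scaling. With TPM as deposited *Cp*, *Cd44* and *C3* were called higher on day 7 (0.42, 0.25 and 0.37, limma adjusted p = 0.00065, 0.0196 and 0.0493), and *Osmr* was at 0.01 (0.885). That setting moved the median of all genes in this comparison to 0.415.

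*Steap4* alone was called higher on day 7, with shRNA RUS. It went from 9.60 to 11.9 to 28.3 to 30.5 scaled TPM, a rise of 1.43 ± 0.0803 (SE, adjusted p = 7.05e-10 by limma). In the controls the ranges, 5.19 to 6.03 and 4.35 to 5.31, overlapped, and the change of −0.18 was not called (limma adjusted p = 0.0793). It was called without replicate 3 of shRNA CON of day 7 (−0.23, 0.0395) and with quantile normalization (−0.33, 0.00195), and was −0.03 with TPM as deposited (0.818).

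**Figure D3:**
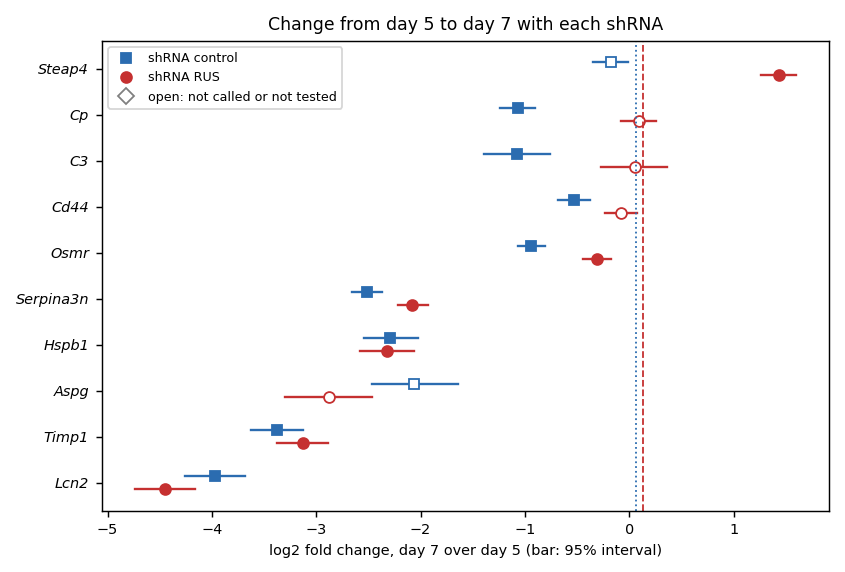
Log2 fold change of each member from day 5 to day 7 with shRNA CON (squares) and with shRNA RUS (circles), with bars for the 95% interval of the fit over 16 libraries. Open symbols did not pass the test or, for *Aspg*, were not tested, and the dotted and dashed lines mark the median of all genes for either shRNA. The bars of *Aspg* include the day 5 values it was chosen for and cannot be read as a test. For *Lcn2*, *Timp1*, *Hspb1*, *Serpina3n* and *Aspg* both symbols lie left of −2, while *Steap4* with shRNA RUS (1.43) is the single filled symbol right of the medians.

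The order of the members by level, which TPM allows since it counts per length, was led by *Serpina3n* and then *Cp* in every group. In shRNA CON on day 5 their means were 772 ± 25.3 and 135 ± 6.95 scaled TPM (SD, n = 4, factors over both days). *Lcn2*, *C3*, *Cd44*, *Osmr*, *Timp1* and *Hspb1* followed between 88.1 ± 7.53 and 39.8 ± 2.57. In this order the ranges of *Lcn2* and *C3*, of *C3* and *Cd44* and of *Osmr* and *Timp1* overlapped. *Steap4* and *Aspg* closed the order with 5.47 ± 0.379 and 2.42 ± 0.562. In shRNA RUS on day 7 the order was *Serpina3n*, *Cp*, *C3*, *Osmr*, *Cd44*, *Steap4*, *Hspb1*, *Timp1*, *Lcn2* and *Aspg*, from 309 ± 30.6 to 1.06 ± 0.148, and only *Osmr* and *Cd44* overlapped with their neighbour. *Steap4* had thus moved from the ninth to the sixth place and *Lcn2* from the third to the ninth.

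The genes whose pattern over the 16 libraries was most like that of each member were found among 15899 genes whose mean reached 1 TPM. The measure was the root mean square difference of the log2 levels (factors over both days), each centred on the gene's own mean. As a description, *Ndp* (0.0965), *Gpd2* and *Sdc4* were nearest to *Osmr*, whose own levels varied by 0.513 about their mean. *Osmr* was in turn the second nearest gene to *Cp* (0.163), after *AI854703* (0.154). *Lrrc75b* (0.167) and *Adamts2* were nearest to *Steap4*. *Lrrc75b* had means of 7.85 and 14.1 scaled TPM on day 5 and 6.15 and 33.1 on day 7 for shRNA CON and shRNA RUS, against 5.47, 10.9, 4.83 and 29.3 for *Steap4*. *Als2cl* (0.174) was nearest to *C3*, *Dclk1* (0.0799) to *Cd44*, *Tnfrsf11b* (0.195) to *Serpina3n* and *S100a4* (0.172), then the small heat shock protein gene *Hspb6* (0.192), to *Hspb1*. For *Timp1* (*Vgf*, 0.301), *Lcn2* (*Tgm1*, 0.417) and *Aspg* (*Elobl*, 0.441) the difference was larger, but so was these members' own variation about their mean (1.66, 2.18 and 1.45), against 0.215 for *Cd44* and 0.499 for *C3*. *Tgm1*, an epidermal transglutaminase listed among genes of ischemic reactive astrocytes, fell from 35.7 to 1.53 scaled TPM in the controls.

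Other genes listed for reactive astrocytes did not move as 1 group. Of the 4 other pan-reactive genes, *S1pr3*, *Gfap* and *Vim* were called higher on both days. *S1pr3*, a receptor of sphingosine-1-phosphate, rose by 0.61 (limma adjusted p = 3.94e-05) and 0.60 (limma adjusted p = 4.4e-07), the filament gene *Gfap* by 0.60 (limma adjusted p = 0.000163) and 0.35 (limma adjusted p = 0.000304), and *Vim*, another filament gene, by 0.55 (limma adjusted p = 0.00327) and 0.17 (limma adjusted p = 0.0116). The chemokine gene *Cxcl10* fell on day 7 (−1.29 (limma adjusted p = 0.00108)). Of the 11 genes listed as A1-type, for inflammatory injury, 2 were higher and 2 lower on day 5, and 2 and 4 on day 7. *Serping1* and *Ggta1* were the 2 on both days, the latter with 0.62 (limma adjusted p = 6.01e-05) and 0.98 (limma adjusted p = 2.02e-07). Of the A2-type genes, for ischemic injury, 2 of 11 tested were higher and 3 lower on day 5, and 3 and 3 on day 7. Among all genes tested, 14.8% were called higher and 17.9% lower on day 5, and 23.4% and 25.8% on day 7. *Sphk1*, which makes sphingosine-1-phosphate, rose by 2.19 (limma adjusted p = 2.64e-05) and 3.04 (limma adjusted p = 4.83e-07), from low control levels of 0.885 and 0.312 scaled TPM where the pseudocount weighs on the fold. *Cd14* was higher on both days as well, and *Emp1* lower on both. *Tgm1* (−0.89 (limma adjusted p = 4.64e-05)) and *Ptx3* (−0.63 (limma adjusted p = 0.000139)) were lower on day 5, and *Tm4sf1* (−1.14 (limma adjusted p = 1.22e-07)) on day 7.

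In the lists of gp130, Jak-Stat and NF-kB genes, which also hold inhibitors and feedback genes, more were called higher than lower on day 7. Of 12 tested ligands and receptors of the gp130 group, 2 were higher and 2 lower on day 5, and 7 and 1 on day 7 (median 0.56). The astrocyte cytokine gene *Cntf* rose by 0.70 (limma adjusted p = 0.000189) and 1.21 (limma adjusted p = 1.22e-07), and the receptor gene *Il6ra* by 0.91 (limma adjusted p = 3.4e-05) on day 7. *Ctf1*, for cardiotrophin, fell on both days (−0.59 (limma adjusted p = 0.00326) and −1.23 (limma adjusted p = 0.000128)). *Lif* was lower on day 5 (−0.51 (limma adjusted p = 0.0429)) and higher on day 7 (0.51 (limma adjusted p = 0.0182)). *Osm*, the ligand of *Osmr*, had group means of at most 0.264 scaled TPM (factors over both days) and was not called on either day. Of 14 Jak and Stat genes and their feedback genes, 3 were higher and 2 lower on day 5, and 7 and 2 on day 7. *Socs3*, the feedback inhibitor induced by Stat3, rose by 0.58 (limma adjusted p = 0.000564) and 1.01 (limma adjusted p = 1.24e-05), and *Pias3*, which binds Stat3, by 0.47 (limma adjusted p = 0.000183) and 1.09 (limma adjusted p = 2.36e-06). *Stat5b* was lower on both days. Of 18 genes of the NF-kB pathway, 9 were higher and 1 lower on day 5, and 8 and 3 on day 7. The TNF receptor gene *Tnfrsf1a* rose by 0.72 (limma adjusted p = 0.000129) and 1.45 (limma adjusted p = 1.83e-07), the factor gene *Relb* by 0.80 (limma adjusted p = 0.00104) and 1.12 (limma adjusted p = 2.5e-05), and *Nfkbia*, the inhibitor that NF-kB induces, by 0.72 (limma adjusted p = 0.00016) on day 5. *Bcl3*, a nuclear cofactor of NF-kB, rose by 1.95 (limma adjusted p = 0.000267) on day 7. *Nfkb1* fell on day 5, and *Tnfrsf1b* and *Il1r1* on day 7. These counts stand beside the shares of all genes given above, 23.4% called higher and 25.8% lower on day 7. The part of these pathways in the members' values was not tested.

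**Figure D4:**
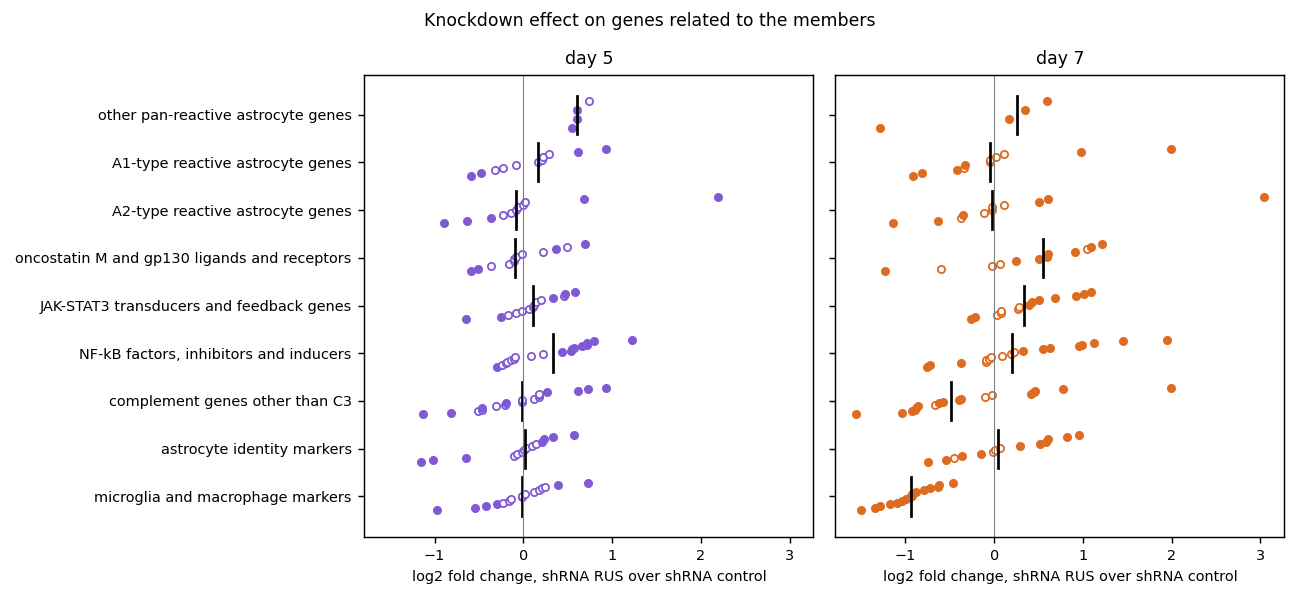
Log2 fold change, shRNA RUS over shRNA CON, of each tested gene of 9 lists related to the members, with day 5 in the left panel and day 7 in the right. Filled points passed the test, open points did not, and the black bars are list medians. The 16 microglia and macrophage markers all lie left of 0 on day 7, and the gp130 list has a median of 0.56 on that day.

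Lists of cell type markers were read beside the members, and their counts stand beside 14.8% of all genes called higher and 17.9% lower with knockdown on day 5, and 23.4% and 25.8% on day 7. Astrocyte identity markers were split, with 4 of 14 higher and 3 lower on day 5 and 6 and 4 on day 7. *Aldoc* was higher on both days (0.57 (limma adjusted p = 0.000302) and 0.61 (limma adjusted p = 9.66e-07)) and the receptor gene *Fgfr3* lower (−1.15 (limma adjusted p = 3.46e-05) and −0.75 (limma adjusted p = 4.59e-07)). The summed level of the 14 was 6262 to 7043 TPM with shRNA CON and 6189.8 to 7388 TPM with shRNA RUS on day 5, and 4334 to 4481 TPM and 5494 to 5692 TPM on day 7. On day 7 the sum was thus higher in every shRNA RUS library than in any control. The median log2 fold change over the 14 markers was 0.04 on that day, beside −0.029 over all genes, so that the sum rests on the more abundant of them. From day 5 to day 7 in the controls, 11 of these 14 were called lower and 1 higher. In the same comparison 14 of the 16 microglia and macrophage markers were higher and the other 2 not called. With knockdown on day 7, 3 of 9 tested fibroblast and meningeal markers were higher and 1 lower, with summed levels of 212 to 254 TPM for shRNA CON and 197 to 231 TPM for shRNA RUS. Of the endothelial and pericyte markers 1 of 6 was higher and 1 lower, with sums of 19.1 to 20.9 TPM and 32.0 to 35.0 TPM. The oligodendrocyte lineage had 1 of 9 higher and 6 lower, the neuron markers 4 of 10 and 3, and the neural stem cell markers 1 of 6 and 3. The part of these marker values in the members' values was not tested.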

How the data were processed

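RNA-seq of 16 NSC libraries, 4 for each shRNA and day, was used. The authors aligned the reads with STAR to mm10 and a GRCm38 transcript table, quantified them with RSEM and deposited TPM, the unit of all values here, in a table for each day that also holds the signal column base mean (DESeq2's mean normalized count over the day's libraries, printed for 2 genes), fold changes and p-values of the authors. The last 2 were not used, and versions are not given in the sources used here. Strand use in the counting is not given there either. A gene listed on several lines entered each fit as separate lines (114 symbols on day 5), and none of the members was among them.

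TPM were divided by a factor for each library, the median of its ratios to each gene's geometric mean, taken over genes with at least 1 TPM in all libraries of the fit, and log2(scaled TPM + 0.1) was fitted with limma 3.58.1 (R 4.3.3; lmFit and eBayes with trend, two-sided) where a gene's mean reached 0.1 TPM. Each day was fitted on its own 8 libraries. Changes between days and the difference of the effects came from 1 fit over 16 libraries. Calls are at an adjusted p under 0.05 (Benjamini-Hochberg, over all genes tested). A fold change on this scale understates that of low genes. The fit was tested on simulated data. The members and the 19 lists beside them were chosen with earlier results of these data known, and the lists have counts and medians only. Each count of a list is to be read beside the share of all genes called in that comparison. Named from a list were up to 3 called genes with the largest and up to 3 with the smallest change on each day at a mean of at least 1 TPM. Some genes that this rule names are not reported here. *Osm*, *Lif* on day 7, *Slc22a17* on day 5, *Lrp2* and *Serpina3i* on day 7, *Serpina3h*, *Cldn5* and *Tie1* were named for their role or after their values were seen. Positions are from GENCODE vM21. The replicate numbers of the 2 shRNAs did not pair the libraries (correlation of the deviations from −0.105 to 0.00196 on day 5 and from −0.00376 to 0.0325 on day 7). Alternatives tried were no filter or one at 1 TPM, pseudocounts of 0.01 and 1, unscaled TPM, quantile and 75th percentile scaling, no trend, a replicate block, each library left out, and calls of at least 1.5-fold only.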

Additional observations from a re-analysis of the deposited data

Results flagged for a closer look

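The knockdown effect differed between the days for 6 of the 9 members tested. In the fit over 16 libraries the difference of the log2 fold changes, day 7 minus day 5, was 1.60 for *Steap4* (limma adjusted p = 5.1e-07), 1.16 for *Cp* (6.17e-06), 1.13 for *C3* (0.000977), 0.63 for *Osmr* (8.34e-05), 0.45 for *Cd44* (0.00306) and 0.43 for *Serpina3n* (0.00348). All 6 were more positive on day 7, beside 15.2% of 23789 genes called higher and 14.6% called lower. Day and medium cannot be told apart in these differences.

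Among the 40 sets of 4 libraries, 10 members in 4 groups, *Hspb1* in shRNA CON on day 5 had 1 library far from the others. Replicate 1 had 32.9 scaled TPM, and its gap to the next was 0.851 of the range. Chance marks about 1 in 20 such sets.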

How the results depend on the processing

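Of 997 repeated values with a test, a member in a comparison under an alternative, 972 kept their direction and their side of the threshold, 1 lost its call and 8 gained a call with the same sign, and 16 changed sign. Of 92 values of *Aspg* without a test, 4 moved by more than the spread. The count of members called went from 6 to between 4 and 6 for the knockdown effect on day 5, from 10 to between 8 and 10 on day 7, from 8 to between 7 and 9 for the days with shRNA CON, from 6 to between 5 and 8 with shRNA RUS, and from 6 to between 4 and 7 for the difference. The lowest of each came with calls of at least 1.5-fold only. With 1 library left out the counts were 6, 10, 8 to 9, 6 and 6 to 7.

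With TPM as deposited, the values that changed sign were *Cd44* (0.25) and *Osmr* (0.01) from day 5 to day 7 with shRNA RUS, of which the former gained a call and the latter lost it, and the difference between the days for *Hspb1* (0.14). With quantile normalization *Cd44* was at 0.05 and *Hspb1* at 0.12, and with 75th percentile scaling at 0.03 and 0.00. With a library left out, *C3* ranged from −0.15 to 0.09 on day 5 and from −0.10 to 0.12 between the days with shRNA RUS, with the sign turned at 0.06, 0.09, −0.10 and −0.01, and the difference for *Hspb1* from −0.17 to 0.04, with 0.01, 0.02 and 0.04 among its values. *Cp* with shRNA RUS was called higher on day 7 with quantile normalization (0.43) and 75th percentile scaling (0.20).

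Scaling moved the median of all genes and the split of calls. With TPM as deposited the median was −0.205 on day 5, 0.205 and 0.415 between the days with shRNA CON and shRNA RUS, and 0.192 for the difference, and the shares of higher calls in these comparisons were 22.7%, 71.4%, 76.9% and 73.5%, against 45.4%, 55.5%, 57.5% and 51.1% as reported. Fitted with a replicate block, the members called stayed at 6, 10, 8, 6 and 6, and the genes called on day 5 went from 7383 to 4966. No value was had for *Aspg* on day 7 with a filter at 1 TPM. TPM hold no read number. The authors' base mean over a day was 32.2 for *Aspg* and 81.8 for *Lcn2* on day 7, so that these rest on the fewest reads of the members.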
